A study of Arabidopsis thaliana with 42 samples.

Results

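The genes described here are 166 of the 24843 Arabidopsis thaliana loci counted in leaves infiltrated with the bacterium Pseudomonas syringae pv. maculicola ES4326 (Pma) or with a mock solution. They were selected on measured values, from wild type and from mutants labelled sid2 and chp60g sard1. Counts were scaled to CPM, each divided by its library total and multiplied by 1e6, and L is the mean over 3 libraries of log2(CPM + 1). A gene was a member if L rose by at least 1 from wild type mock to wild type Pma and was higher by at least 1 in both sid2 Pma and chp60g sard1 Pma than in wild type Pma. They are thus genes that infection raised in wild type and that stood higher still in infected leaves of lines lacking salicylic acid production or its regulators.

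Salicylic acid and jasmonate are plant defence hormones that often act against each other. In infected leaves most salicylic acid comes from isochorismate synthase ICS1 (the gene mutated in sid2), whose transcription is driven by the related calmodulin-binding protein CBP60g and transcription factor SARD1. Jasmonoyl-isoleucine is bound by the receptor COI1, JAZ repressors are then degraded, and MYC transcription factors are released; Pma ES4326 is known to make coronatine, a mimic of jasmonoyl-isoleucine.

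The study put the ecotype Col-0 and 6 mutant lines through 3 independent experiments, each with 1 sample of 2 leaves for every genotype and treatment. Besides wild type these were sid2, wrky70, cml46 cml47, cbp60a, cbp60a cbp60g sard1 (called the triple mutant below) and a line labelled chp60g sard1, which is read here as cbp60g sard1. Plants were 30 days old, leaves 6 to 8 received 5 mM magnesium sulfate alone (mock) or Pma in it at an optical density of 0.0002, and leaves were taken after 24 hours. The 14 groups of 3 libraries hold one library per experiment, so n = 3 means 3 experiments, and alleles are not given in the sources used here.

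Libraries held 919335 to 2691069 counts of 3' tags, and the counts of whole leaves cannot tell fewer cells of a type from less RNA per cell. In Pma leaves ICS1 was at 0.744 to 2.90 CPM in sid2 against 473 to 842 in wild type, SARD1 at 5.72 to 19.3 CPM in the triple mutant against 191 to 301 in cbp60a, and CML46 at 0 to 1.06 CPM in cml46 cml47. CBP60G was at 17.2 to 47.9 CPM in the triple mutant against 269 to 288 in cbp60a, and WRKY70 at 122 to 261 CPM in wrky70 against 1799 to 2326 in wild type. CML47 was still counted in cml46 cml47 Pma, at 217, 342 and 278 CPM, against 672 to 903 CPM in wild type Pma and 380 to 427 CPM in sid2 Pma. CBP60A was at 18.3 to 24.2 CPM in triple mutant Pma and at 18.6 to 26.0 CPM in cbp60a Pma, against 36.9 to 68.1 CPM in wild type Pma. The marker gene PR1 was at 8.59 to 505 CPM in triple mutant Pma and at 7061 to 11567 CPM in cbp60a Pma. The cbp60a mock library of experiment 1 stood apart from the others of its group: PR1 was at 692 CPM there against 10.5 and 12.0, WRKY70 at 877 CPM against 184 and 80.5, and the members' median log2(CPM + 1) was 2.25 against 1.26 and 1.67. Results that use cbp60a mock are therefore also given without it. In mock leaves WRKY70 was highest in experiment 1 in every genotype except cml46 cml47, as in the triple mutant (732 CPM against 157 and 301). PR1 was highest in experiment 1 also in triple mutant and wrky70 mock (516 CPM against 7.9 and 63.5 in wrky70), but not in wild type, chp60g sard1, cml46 cml47 or sid2. For the members' median this held in wild type, the triple mutant, cml46 cml47 and wrky70, not in chp60g sard1 or sid2. In cml46 cml47 mock PR1 was high in every experiment, at 326, 1348 and 752 CPM, against 1.26 to 4.03 CPM in wild type mock. The members' median was 1.53 to 2.37 in cml46 cml47 mock and 1.18 to 1.46 in wild type mock.

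Of the 5318 loci with a rise of at least 1 in wild type, 312 met the threshold in sid2 and 270 in chp60g sard1, and 166 met both. The median rise of the members in wild type was 2.37 on the log2 scale (range 1.00 to 7.73), their median excess in sid2 was 1.80 (1.01 to 4.89) and in chp60g sard1 2.09 (1.00 to 4.85). These values chose the members and carry no test. Just inside the thresholds were CYP94B1, a cytochrome P450 of jasmonate turnover, with an excess of 1.00 in chp60g sard1, RAD51D with a rise of 1.00 in wild type, and the lipoxygenase LOX2 with an excess of 1.01 in sid2. Just outside were JAZ8 with an excess of 0.998 in chp60g sard1, NAI1 with 0.997 and IRX15-L with 0.996, both in sid2. NAI1 is a regulator of endoplasmic reticulum bodies, whose main enzyme PYK10 is a member. The smaller of the mutant excesses was largest for AT4G11320 (4.36), PYK10 (4.28) and VSP1 (4.03), and smallest for CYP94B1 (1.00), LOX2 (1.01) and AT2G46100 (1.01).

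The promoters of the jasmonate synthesis and output members with the highest level in the triple mutant are shown because the jasmonate lists hold most of the listed members. Each is the 250 bases before the annotated gene start in the TAIR10.1 RefSeq reference, 5′ to 3′ on the strand of the gene, with CACGTG (the G-box bound by MYC2) or CACATG (a related MYC2 site) in capitals. They are LOX2 at chr3:16524995-16525244 (plus strand), CORI3 at chr4:12310129-12310378 (plus), VSP2 at chr5:8502225-8502474 (minus), ARGAH2 at chr4:5648869-5649118 (minus), DHAR1 at chr1:6774524-6774773 (minus, overlapping the gene AT1G19580) and VSP1 at chr5:8509202-8509451 (minus).
LOX2: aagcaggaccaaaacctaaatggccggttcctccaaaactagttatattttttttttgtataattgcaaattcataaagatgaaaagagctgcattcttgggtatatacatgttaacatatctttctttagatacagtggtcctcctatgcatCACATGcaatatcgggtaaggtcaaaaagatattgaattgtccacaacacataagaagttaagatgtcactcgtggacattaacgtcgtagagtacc
CORI3: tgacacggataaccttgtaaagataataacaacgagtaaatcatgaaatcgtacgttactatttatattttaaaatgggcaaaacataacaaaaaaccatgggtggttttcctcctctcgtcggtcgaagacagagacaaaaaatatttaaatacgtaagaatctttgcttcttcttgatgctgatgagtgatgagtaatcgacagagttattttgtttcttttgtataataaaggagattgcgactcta
VSP2: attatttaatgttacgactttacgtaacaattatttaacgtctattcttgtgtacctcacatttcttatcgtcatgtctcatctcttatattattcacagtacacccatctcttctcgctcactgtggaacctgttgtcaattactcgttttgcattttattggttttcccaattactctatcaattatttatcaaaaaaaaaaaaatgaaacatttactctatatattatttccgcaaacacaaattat
ARGAH2: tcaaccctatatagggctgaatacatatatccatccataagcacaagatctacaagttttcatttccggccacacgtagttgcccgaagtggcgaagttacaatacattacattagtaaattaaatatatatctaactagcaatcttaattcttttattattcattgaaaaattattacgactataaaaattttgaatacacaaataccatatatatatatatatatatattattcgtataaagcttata
DHAR1: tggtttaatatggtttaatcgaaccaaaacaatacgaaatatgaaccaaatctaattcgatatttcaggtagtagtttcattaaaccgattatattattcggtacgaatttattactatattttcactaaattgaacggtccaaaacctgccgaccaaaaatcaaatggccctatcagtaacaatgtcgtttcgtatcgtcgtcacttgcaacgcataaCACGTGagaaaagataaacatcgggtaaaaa
VSP1: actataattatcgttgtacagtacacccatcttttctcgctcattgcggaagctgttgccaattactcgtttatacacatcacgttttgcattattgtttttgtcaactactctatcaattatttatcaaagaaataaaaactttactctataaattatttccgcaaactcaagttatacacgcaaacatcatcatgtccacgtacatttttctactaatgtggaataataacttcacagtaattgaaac
LOX2 had CACATG with its leading base 97 bases before the start, and DHAR1 had CACGTG 31 bases before it. The other 4 windows held neither, which says only that these letters are not in these 250 bases.

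Over the whole set, CACGTG was found in the promoter window of 24 of 166 members (14.5%), against 6.87% of 24700 windows of all genes and 8.29% of the 5151 other genes that rose in wild type. CACATG was found in 36 members (21.7%) against 11.2% of all and 10.5% of other induced genes. Either motif was in 55 members (33.1%), against 17% and 17.6%. The shorter ACGTG, the core of abscisic acid elements, which is part of every CACGTG, was in 78 members (47%), 23.4% of all windows and 27.7% of those of other induced genes. TTGAC, the core of the W-box bound by WRKY factors, was in 49.4% of members, 45.2% of all and 51.4% of other induced genes. TGACG, bound by TGA factors, was in 20.5%, 18.9% and 21.3%, and GCCGCC, the GCC-box bound by ethylene response factors, in 0.602%, 1.88% and 2.08%. All motifs were searched on both strands, and a match is a description of the sequence. Some members had CACGTG far enough from the ends of the promoter window for 30 bases centred on it to fit inside. The 8 of these with the highest triple mutant level show how the bases around it differ, in windows of 30 bases with the motif in capitals. They lie at chr1:6774537-6774566 (minus strand, DHAR1), chr5:8031088-8031117 (plus strand, AT5G23820), chr5:19183489-19183518 (plus strand, NUDT8), chr1:19640287-19640316 (plus strand, AT1G52720), chr1:19352879-19352908 (minus strand, MBP1), chr5:763528-763557 (minus strand, DIP2), chr1:24028740-24028769 (plus strand, MGL) and chr4:1040980-1041009 (plus strand, AT4G02360).
DHAR1: tgcaacgcataaCACGTGagaaaagataaa
AT5G23820: ccgaaatgaatcCACGTGattgtgaatgaa
NUDT8: caattggaaattCACGTGtattttgtcttt
AT1G52720: gatttgacttggCACGTGtgagacactcgc
MBP1: tttacgtaattaCACGTGttctccagcatg
DIP2: gacaagagctcaCACGTGttgcacattcga
MGL: ttagacagggtaCACGTGaatgactcccac
AT4G02360: tttccctattaaCACGTGtgctctctctgt
MBP1 encodes a myrosinase-binding protein and MGL a methionine gamma-lyase.

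Some members were neighbours. Among them, 26 formed 13 pairs of adjacent loci, such as the vegetative storage protein genes VSP2 and VSP1, the allene oxide cyclase genes AOC1 and AOC2, BGLU18 and TSA1 of endoplasmic reticulum bodies, the terpene synthase genes TPS02 and TPS03, and the glutathione transferase genes GSTU6 and GSTU5. Neighbours can be copies whose reads are hard to part: the last 300 bases of VSP1 and VSP2 were 91.3% identical over 298 aligned bases, and those of DHAR1 were 98.6% identical to AT1G19550 over 140. In all, 13 members had a 3' end with at least 90% identity over 50 bases at another locus, and 34 overlapped another counted gene, so their values are uncertain to that extent. PYK10, IGMT5, BSMT1 and GTR1 are among the overlapping genes.

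The 30 libraries that the rule did not use allow the effect of losing CBP60g and SARD1 to be tested anew, by setting the triple mutant against cbp60a, which differs from it in those genes. These libraries come from the same 3 experiments as those that chose the members. All 166 members passed the filter on low counts and were tested with edgeR's quasi-likelihood test, with Benjamini-Hochberg adjustment over 15161 genes and a call at adjusted p under 0.05. The filter and the estimate of spread came from all 42 libraries, those of the rule included. In Pma leaves 147 members (88.6%) were higher in the triple mutant, against 9.95% of all tested genes. None was lower, against 4% of all genes; none was lower at an unadjusted p under 0.05 or with DESeq2, which called 136 higher. The median log2 fold change of the members was 2.51, with quartiles of 1.76 and 3.83, and that of all genes was 0.08. In a fit of the 30 libraries alone, 128 members were higher and none lower, against 1313 and 475 of 14923 genes.

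The members' level differed between experiments as well. Their share of all counts in Pma libraries was 0.881%, 1.56% and 2.48% in cbp60a and 3.45%, 6.98% and 12.2% in the triple mutant, in experiments 1 to 3. Within each experiment the triple mutant was higher, and the lowest triple mutant library lay above the highest cbp60a library. For single genes, 153 members were higher in the triple mutant in all 3 experiments, against 16.6% of all genes, and 99 had all 3 triple mutant libraries above all 3 cbp60a libraries, against 7.65%.

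**Figure D1:**
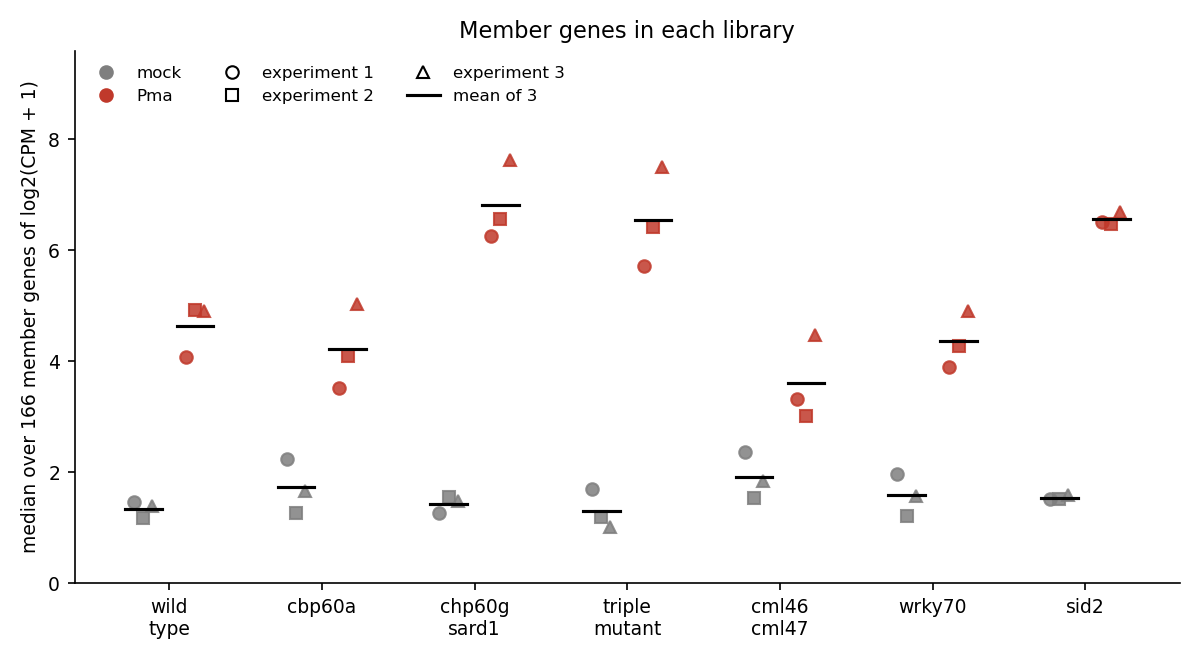
Median log2(CPM + 1) over the 166 members in each of the 42 libraries, by genotype, treatment (grey mock, red Pma) and experiment (symbol), with lines at the mean of 3. Mock libraries lie between 1.01 and 2.37, the triple mutant Pma libraries between 5.72 and 7.51 and the cbp60a Pma libraries between 3.52 and 5.04.

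Without experiment 2, 89 members were called higher in the triple mutant, and 624 of all 15383 genes tested. Without experiment 3 the members called were again 89, with 360 of 15274 genes, and without the triple mutant Pma library of experiment 3 alone they were 104, with 574 of 15468 genes. With all libraries 1508 of 15161 genes were called higher. Against cml46 cml47, from which the triple mutant differs in 5 genes, 160 members (96.4%) were higher in the triple mutant, with 10% of all genes called higher. None was lower, where 6.34% of all genes were lower, and none was lower at an unadjusted p under 0.05 or with DESeq2 (150 higher). The genes with the largest fitted differences there had almost no counts in cml46 cml47, so they are given by their counts and in no order of size. AT5G26260 had 473 counts in the triple mutant and 0 in cml46 cml47, at least 192-fold higher when 3 counts over the group are put in place of 0. CYP71B37 was at least 185-fold and AT4G11310 at least 83.6-fold higher by the same bound. AT4G11320, a papain-family protease, had 850 counts against 3, a ratio of 345 (95% counting interval 118 to 1676), and AT2G30830 was higher by 7.36 ± 0.95 (log2, SE). Both comparisons use the same triple mutant libraries.

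**Figure D2:**
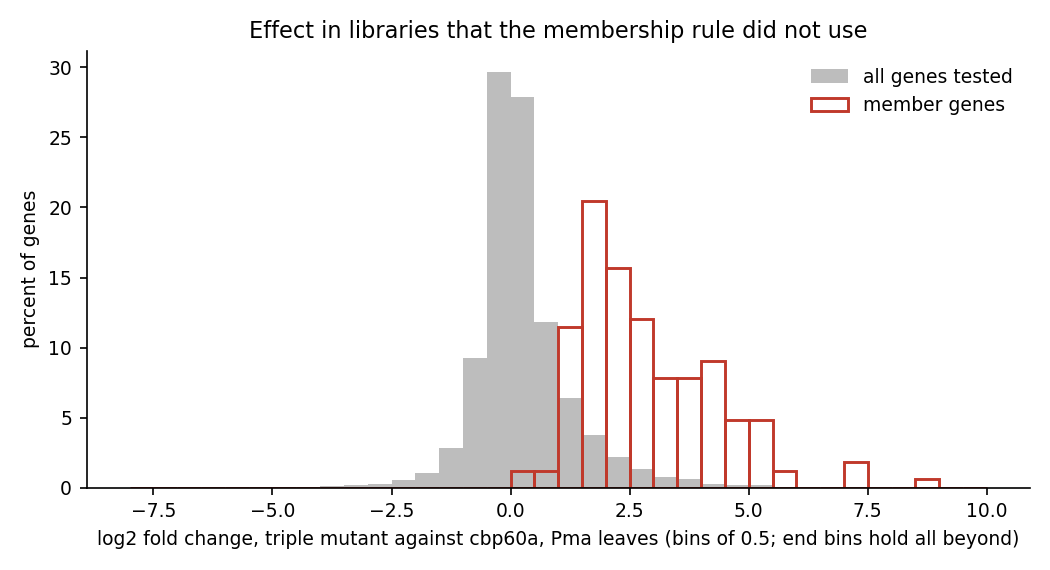
Percent of member genes (red outline) and of all 15161 tested genes (grey) by log2 fold change between the triple mutant and cbp60a in Pma leaves, from edgeR. The members lie between 0.48 and 8.95 with a median of 2.51, and all genes have a median of 0.08.

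Of the members, 5 act in jasmonate synthesis, and 4 of them rose from cbp60a to the triple mutant. LOX2, the plastid lipoxygenase that supplies most wound jasmonate, was at 2330, 3673 and 4691 CPM in cbp60a Pma and at 5543, 8807 and 10303 CPM in triple mutant Pma. The groups did not overlap, and the log2 fold change was 1.48 ± 0.43 (SE, n = 3 per group, edgeR adjusted p = 0.018). AOC1 and AOC2, allene oxide cyclases that close the ring of the jasmonate precursor, were higher by 2.96 ± 0.58 (adjusted p = 0.00054) and 2.08 ± 0.39 (adjusted p = 0.00036). AOC1 went from 67.0, 177 and 222 CPM to 313, 914 and 1886 CPM. LOX3, another lipoxygenase, was higher by 1.80 ± 0.49 (adjusted p = 0.011), and its relative LOX4 by 0.79 ± 0.48, which did not pass (adjusted p = 0.31). LOX4 was at 149, 346 and 425 CPM in cbp60a Pma and at 205, 506 and 608 CPM in triple mutant Pma, and these overlap.

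In the whole list of 15 jasmonate synthesis genes, 9 of 14 tested were higher and none was lower, with a median of 1.26. Over all tested genes 9.95% were higher and 4% lower in this comparison. Those shares apply to every list count of the triple mutant against cbp60a below. AOS, the allene oxide synthase before the cyclases, rose by 2.68 ± 0.32 (adjusted p = 1.1e-06) but is no member, nor are AOC3, AOC4, OPR3 and OPCL1, which also rose.

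Jasmonate conversion was represented by 3 members. JMT, which makes methyl jasmonate, rose from 18.6, 111 and 153 CPM in cbp60a Pma to 144, 390 and 606 CPM in triple mutant Pma (2.37 ± 0.48, adjusted p = 0.00077), with a slight overlap in experiment 1. ILL5, listed as an amidohydrolase related to those that split hormone conjugates, rose from 1.16, 13.5 and 28.2 CPM to 94.2, 299 and 575 CPM (4.84 ± 0.64, adjusted p = 5.9e-06). For CYP94B1, which oxidises jasmonoyl-isoleucine, the levels were 1.16, 2.08 and 10.2 CPM against 3.95, 10.5 and 17.2 CPM, and the difference of 1.46 ± 0.55 did not pass (adjusted p = 0.076). Of the 11 tested genes of this list 2 were higher and none lower, and the others, among them CYP94B3 and CYP94C1, did not pass.

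The list with the most members was the outputs of the MYC branch of the jasmonate pathway, with 9, all higher in the triple mutant. VSP1, a vegetative storage protein with phosphatase activity, was at 16.9, 108 and 294 CPM in cbp60a Pma and at 895, 1774 and 7444 CPM in triple mutant Pma. The log2 fold change was 4.87 ± 0.98 (adjusted p = 0.00076), and the groups did not overlap. VSP2, the neighbouring copy, was higher by 4.17 ± 1.11 (adjusted p = 0.0096), from 29.7, 423 and 752 to 1662, 4854 and 11241 CPM. CORI3, a coronatine-induced cystine lyase, went from 497, 1063 and 1591 to 3421, 8130 and 11144 CPM (3.13 ± 0.61, adjusted p = 0.00052).

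The outputs also hold enzymes of primary and redox metabolism. ARGAH2, an arginase, rose from 457, 1118 and 1734 to 1849, 4840 and 7875 CPM (2.41 ± 0.45, adjusted p = 0.00031). DHAR1, a dehydroascorbate reductase that recycles ascorbate, rose from 89.7, 185 and 384 to 1077, 2756 and 4345 CPM (3.93 ± 0.56, adjusted p = 1.1e-05). CLH1, a chlorophyllase, rose by 2.54 ± 0.55 (adjusted p = 0.0015). In this list of 15 genes, all tested, 9 were higher and none lower with a median of 2.41, and these 9 are the members.

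Genes for volatiles are also among the outputs, where transcripts were counted and no volatile was measured. BSMT1, which methylates salicylic and benzoic acid, rose from 76.9, 514 and 1544 to 302, 2211 and 4202 CPM (2.07 ± 0.62, adjusted p = 0.020), with overlap between the groups. TPS10 and TPS03, terpene synthases that make volatile terpenes, rose by 4.05 ± 0.53 (adjusted p = 1.2e-06) and 3.23 ± 0.78 (adjusted p = 0.0037). With TPS02, CHAT (which makes a leaf volatile ester) and JMT they form a group of 6 volatile genes, put together after the values were seen. All 6 were higher, by 2.06 to 4.05. The group was drawn from the members, of which 88.6% were called higher, against 9.95% of all tested genes.

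**Figure D3:**
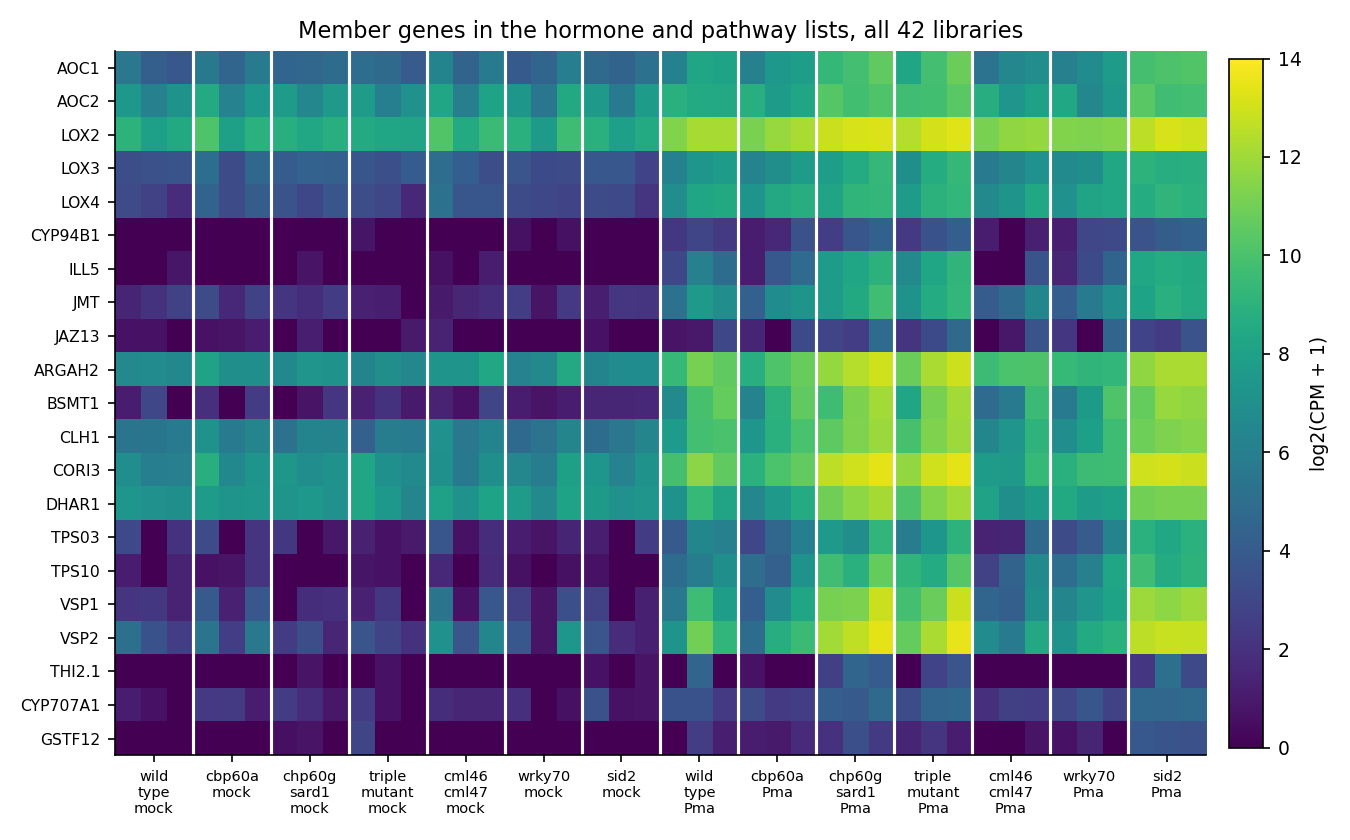
Level, as log2(CPM + 1), of the 21 members that belong to the hormone and pathway lists, in all 42 libraries (columns, 3 experiments per group, mock left and Pma right). LOX2, CORI3, VSP1, VSP2 and ARGAH2 are brightest in the chp60g sard1, triple mutant and sid2 Pma libraries.

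JAZ repressors supplied 1 member of 13 listed. JAZ13 (AT3G22275), a repressor of jasmonate responses, was at 1.75, 0 and 7.91 CPM in cbp60a Pma and at 3.38, 7.90 and 27.5 CPM in triple mutant Pma, and its 2.20 ± 0.79 did not pass (adjusted p = 0.056). In the JAZ list 2 of 12 tested genes were higher, JAZ2 (1.18) and JAZ3 (1.07), and none lower. Of 11 jasmonate receptor and transcription factor genes 4 were higher, MYC2 (1.43), NINJA, JAM1 and JAM2, and none lower, although none is a member. THI2.1, a thionin of the branch shared with ethylene, had 28 counts in the triple mutant and 1 in cbp60a, a ratio of 31.4 (95% counting interval 5.19 to 1285, adjusted p = 0.038). That list had 2 of 9 tested genes higher and none lower.

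Other hormone lists had few members. CYP707A1, an abscisic acid hydroxylase, rose from 8.15, 4.16 and 5.08 to 8.46, 22.8 and 24.6 CPM (1.98 ± 0.60, adjusted p = 0.021), and 1 of 20 tested abscisic acid genes was higher and 2 lower. GSTF12, which carries anthocyanins to the vacuole, was at 1.16, 1.04 and 2.26 CPM in cbp60a Pma and at 1.69, 3.51 and 1.1 CPM in triple mutant Pma and did not pass (0.49 ± 0.96, adjusted p = 0.80). In its flavonoid list 1 of 6 tested genes was higher and 1 lower. No member belongs to the ethylene list (2 of 13 higher, none lower), the senescence list (none of 14 higher, 2 lower), the salicylic acid synthesis list (none of 14 higher, 8 lower), the salicylic acid response markers (1 of 13 higher, 3 lower) or the camalexin list (2 of 6 higher, 1 lower).

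Glucosinolate defence was the next group, put together after the values were seen. Glucosinolates are stored sulfur compounds that beta-glucosidases (myrosinases) split when tissue is damaged, and endoplasmic reticulum bodies are stores of such enzymes induced by wounding and jasmonate. All 10 members of this group were higher in the triple mutant than in cbp60a, by 2.50 to 7.16 with a median of 4.19. Of all members 88.6% were called higher, and of all tested genes 9.95%. BGLU18, the main beta-glucosidase of inducible endoplasmic reticulum bodies in leaves, was at 53.0, 78.0 and 177 CPM in cbp60a Pma and at 329, 658 and 4025 CPM in triple mutant Pma. The groups did not overlap and the difference was 4.25 ± 0.87 (adjusted p = 0.00094). Its neighbour TSA1, a protein of the same bodies, rose from 25.6, 30.2 and 65.5 to 88.5, 344 and 1078 CPM (3.86 ± 0.71, adjusted p = 0.0003).

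PYK10, best known as the endoplasmic reticulum body glucosidase of roots and seedlings, had 413 counts in triple mutant Pma (3.38, 48.3 and 202 CPM) and 2 in cbp60a Pma. That is a ratio of 232 (95% counting interval 63.7 to 1920, adjusted p = 0.00055). Without experiment 3 it did not pass (adjusted p = 0.12). The jacalin-related lectin JAL23 rose by 5.10 ± 0.83 (adjusted p = 7.1e-05) and the myrosinase-binding protein MBP1 by 5.14 ± 0.87 (adjusted p = 0.00012). Summed over the 10 genes, the level was 254 to 868 CPM in cbp60a Pma, 276 to 635 in wrky70 Pma and 1714 to 13381 in triple mutant Pma.

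Indole glucosinolate members were IGMT1 and IGMT5, methyltransferases that modify the indole ring, and GTR1, a glucosinolate transporter. IGMT5 was at 5.82, 0 and 7.91 CPM in cbp60a Pma and at 145, 18.4 and 268 CPM in triple mutant Pma (5.41 ± 0.67, adjusted p = 2.9e-07). Experiment 2 gave the lowest IGMT5 level of the 3 Pma libraries in every genotype except wild type. IGMT1 rose by 3.56 ± 0.43 (adjusted p = 4.9e-07), and its 3' end is 95.0% identical to that of a neighbouring gene over 80 bases. GTR1 rose by 1.62 ± 0.56 (adjusted p = 0.048).

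Cell wall genes made up 9 members, a group also put together after the values were seen. All 9 rose, by 1.36 to 5.22, where 88.6% of all members and 9.95% of all tested genes were called higher. CSLA01, CSLA10 and ATCSLA15 belong to the cellulose synthase-like A family, whose enzymes make mannan. ATCSLA15 was at 0.582, 0 and 3.39 CPM in cbp60a Pma and at 5.07, 9.65 and 171 CPM in triple mutant Pma (5.22 ± 0.97, adjusted p = 0.00019), and it did not pass without experiment 3 (adjusted p = 0.14). TBL37, of a family of wall acetyltransferases, was higher by 1.36 ± 0.34 (adjusted p = 0.0052). The expansin EXPA10 and the pectin methylesterase PMEPCRA were in the same group.

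**Figure D4:**
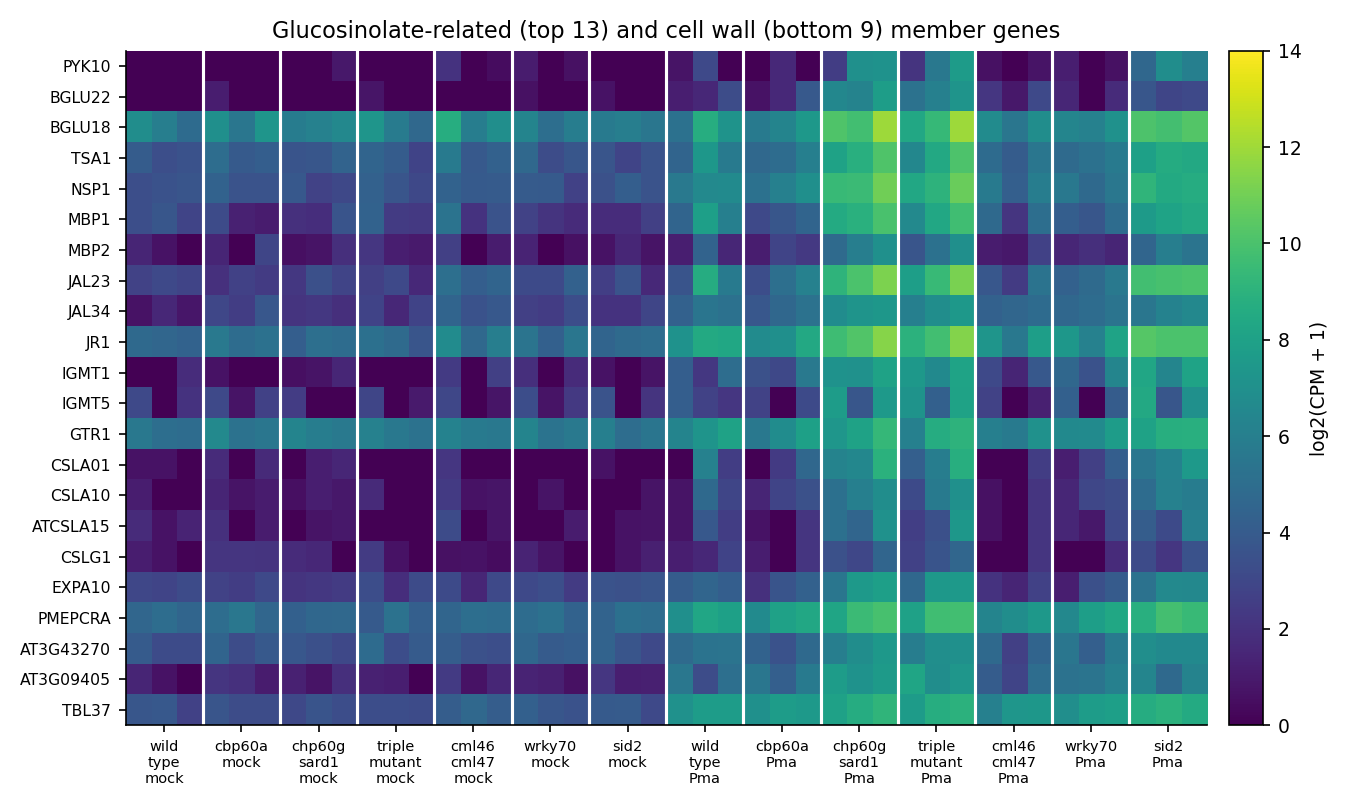
Level, as log2(CPM + 1), of 13 glucosinolate-related and 9 cell wall members in all 42 libraries (columns, 3 experiments per group, mock left and Pma right). BGLU18, NSP1, JAL23 and JR1 are brightest in experiment 3 of chp60g sard1 Pma and triple mutant Pma.

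Transcription regulators numbered 7 among the members and 5 rose, where 88.6% of all members and 9.95% of all tested genes were called higher. NAC025, a NAC-domain factor, had no count in any mock library, 135 counts in triple mutant Pma (11.8, 5.27 and 61.8 CPM) and 2 in cbp60a Pma, a ratio of 75.7 (95% counting interval 20.6 to 632, adjusted p = 4.2e-05). RGL3, a DELLA protein that represses gibberellin responses and binds JAZ proteins, rose from 1.16, 2.08 and 2.82 to 4.51, 29 and 65.3 CPM (4.02 ± 0.71, adjusted p = 9.8e-05). MYB15, an activator of lignin and defence genes, rose by 1.80 ± 0.52 (adjusted p = 0.016). BHLH92 did not pass (1.11 ± 0.56, adjusted p = 0.21), nor did JAZ13.

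Calcium-binding proteins gave 5 members, all higher, where 88.6% of all members and 9.95% of all tested genes were called higher. CML38, a calmodulin-like protein induced by wounding, rose from 34.9, 34.3 and 105 to 260, 270 and 607 CPM (3.01 ± 0.48, adjusted p = 6.1e-05). Among detoxification enzymes, the glutathione transferase GSTU6 rose by 4.55 ± 0.66 (adjusted p = 9.2e-06) and its neighbour GSTU5 by 1.77 ± 0.35 (adjusted p = 0.00054). The cytochrome P450 CYP71B37 rose by 5.05 ± 0.98 (adjusted p = 0.00095), but not with DESeq2 (adjusted p = 0.073) or without experiment 3 (adjusted p = 0.14). The aquaporin PIP1;4, which lets water and carbon dioxide through membranes, rose from 168, 748 and 625 to 280, 2805 and 2214 CPM (1.99 ± 0.45, adjusted p = 0.0024), with overlap because experiment 1 was low in both groups.

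The 19 members that did not pass were all above 0, and their lowest value was 0.48. They include LOX4, CYP94B1, JAZ13, GSTF12 and BHLH92 from above, the nitrate transporter NRT1.8, the cytokinin oxidase CKX5, the methionine sulfoxide reductase MSRB7, CAF1a of messenger RNA deadenylation and BT2. Not passing does not show that these genes did not differ.

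Infection itself was tested in the 4 genotypes that the rule left out. In cbp60a 95 members (57.2%) were higher in Pma than in mock, against 29.7% of all genes, and none was lower against 33.5%. In wrky70 113 (68.1%) were higher, against 29.3%, and none lower against 31.4%. In cml46 cml47 70 (42.2%) were higher, against 26.9%, and 1 lower against 30.2%. In the triple mutant 164 (98.8%) were higher, against 27.8%, and none lower against 30.5%. In cbp60a, wrky70 and the triple mutant no member was lower at an unadjusted p under 0.05 or with DESeq2, which called 91, 109 and 161 higher. The median log2 fold change was 2.04, 2.51, 1.49 and 5.26 in this order of genotypes. With genes at 0 counts in mock set to their bound and genes of at most 3 counts in both groups left out, it was 1.91, 2.37, 1.24 and 4.94.

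In cbp60a without experiment 3, 61 members were higher, with 3624 of 15274 genes. Without its mock library of experiment 1 there were 107, with 4841 of 15470 genes. With all libraries 4507 of 15161 genes were higher. In cbp60a BSMT1 rose by 7.24 ± 0.93 and MSRB7 by 6.38 ± 0.76. NRT1.8 was at least 47.6-fold higher in Pma, AT4G10290 at least 31-fold and ILL5 at least 17.1-fold. These last have 0 counts in mock, so their place in an order of size is not known. In the triple mutant the defensin-like gene AT3G59930 was at least 932-fold higher, the EF-hand gene AT1G76640 at least 438-fold, ILL5 at least 429-fold, AT3G43250 at least 353-fold and AT1G54010 at least 325-fold. In wrky70 BGLU27 was at least 164-fold, AT1G76640 at least 96.2-fold and AT2G47950 at least 93.2-fold higher, and AT3G59930 rose by 8.59 ± 0.93. MSRB7 had 929 counts in wrky70 Pma and 1 in mock, a ratio of 941 (95% counting interval 168 to 37202). In cml46 cml47 MSRB7 rose by 7.21 ± 0.85, and AT3G43250, BGLU27, AT2G47950 and AT2G01379 had 1 count in mock and 94 to 127 in Pma, ratios of 113 to 152 with 95% counting intervals that begin at 19.7 to 26.8. The lower gene there, AT4G11320, had 42 counts in mock and 3 in Pma, a ratio of 0.086 (95% counting interval 0.017 to 0.268, adjusted p = 0.042), and its mock counts were mostly in experiment 1.

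The difference between the responses of the triple mutant and of cbp60a was tested as an interaction. The response was larger in the triple mutant for 60 members (36.1%), against 3.33% of all genes, and smaller for none against 0.455%. At an unadjusted p under 0.05 it was larger for 107 and smaller for 1, and DESeq2 called 68 larger and none smaller. The median difference was 3.09, and 2.65 over the 102 members with more than 3 counts in each of the 4 groups, of which 55 were called. Over all genes 505 were larger. Without experiment 2 the count fell to 2 members and 6 of all genes, without experiment 3 to 4 members and 14 genes, and with no experiment block to 19 members and 132 genes. Without the cbp60a mock library of experiment 1, where PR1 was high, 27 members were called, and 354 of 15470 genes. AT1G54010, ATCSLA15 and AT3G59930 had the largest fitted values (9.89, 9.72 and 8.31), but no count in triple mutant mock, so those values depend on the fit. VSP1 (7.04 ± 1.63, adjusted p = 0.012) and AT4G17470 (6.80 ± 1.31, adjusted p = 0.0033) followed. For the jasmonate enzyme JMT the difference was 4.91 ± 1.02 (adjusted p = 0.0057), and for DHAR1 3.83 ± 0.73 (adjusted p = 0.0033).

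DHAR1 and BGLU18 are among the 71 members that were not called in cbp60a, where 95 were higher. DHAR1 was at 206, 151 and 172 CPM in cbp60a mock and 89.7, 185 and 384 in cbp60a Pma, a difference of -0.07 ± 0.51 (adjusted p = 0.91). In the triple mutant it went from 300, 178 and 80.7 to 1077, 2756 and 4345 CPM (3.76 ± 0.56, adjusted p = 1e-06). BGLU18 changed by -0.38 ± 0.79 in cbp60a (adjusted p = 0.69) and rose by 4.19 ± 0.89 in the triple mutant (adjusted p = 0.00016).

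WRKY70 is a transcription factor placed between the salicylic acid and jasmonate pathways. In wrky70 Pma 6 members (3.61%) were higher than in cbp60a Pma, against 2.45% of all genes, and none was lower against 1.73%. At an unadjusted p under 0.05 22 were higher and 10 lower, and DESeq2 called 8 higher and 1 lower. The share of higher members is near that of all genes, and the medians of the members and of all genes were both 0.10. The 6 were AT3G59930, ACA2 (a carbonic anhydrase), AT1G15415, AT3G15356 (a lectin), AT2G01379 and AT2G47950. AT3G59930 was at 10.5, 38.5 and 94.3 CPM in cbp60a Pma and at 138, 454 and 676 CPM in wrky70 Pma (3.29 ± 0.62, adjusted p = 0.0019), and the groups did not overlap. ACA2 was at 37.9, 20.8 and 37.8 against 63.8, 204 and 326 CPM (2.77 ± 0.54, adjusted p = 0.0026). AT3G15356 was at 49.5, 41.6 and 37.8 against 62.5, 204 and 385 CPM (2.36 ± 0.44, adjusted p = 0.0025), and its 3' end is 95.8% identical to another lectin gene over 96 bases. AT1G15415 and AT2G01379 were higher by 2.64 ± 0.53 (adjusted p = 0.0028) and 1.81 ± 0.47 (adjusted p = 0.024). Without experiment 2 none of the members was called, with 3 of 15383 genes higher and 6 lower. Without experiment 3, 2 members were higher, with 234 of 15274 genes.

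**Figure D5:**
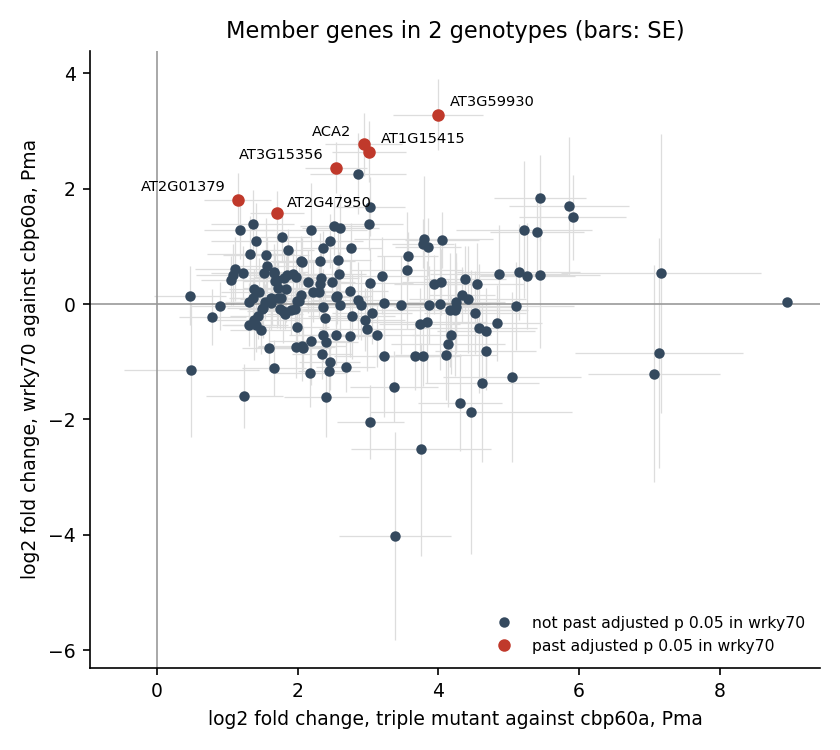
Log2 fold change of each member against cbp60a in Pma leaves, in the triple mutant (horizontal) and wrky70 (vertical), with SE bars (not drawn for AT4G11310, which has no count in cbp60a Pma); both axes use the same cbp60a libraries. The 6 members higher in wrky70 at adjusted p under 0.05 are red and named, and the members scatter around 0 on the vertical axis.

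Outputs of the MYC branch that were far higher in the triple mutant had other values in wrky70 Pma. VSP1 was at 80.5, 155 and 280 CPM (0.52 ± 0.85 against cbp60a, adjusted p = 0.82) and CORI3 at 480, 789 and 806 CPM (-0.53 ± 0.56, adjusted p = 0.69). Of the 15 outputs of that branch none was higher than in cbp60a Pma, and TAT3, which is no member, was lower. Only 2.45% of all genes were higher and 1.73% lower in this comparison, so these counts say little of the outputs as a list.

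CML46 and CML47 are calmodulin-like proteins. In cml46 cml47 Pma no member was higher than in cbp60a Pma, against 0.119% of all genes, and none was lower, against 0.0198%. At an unadjusted p under 0.05 2 members were higher and 40 lower, against 1344 and 633 of 15161 genes, and DESeq2 called no member in either direction. The median of the members was -0.75 and that of all genes 0.05. Among the 7 genotypes cml46 cml47 had the lowest mean L in Pma for 116 of 166 members, wrky70 for 24, cbp60a for 15 and wild type for 11. By the rule sid2 and chp60g sard1 could not be the lowest, and the same order was not counted over all genes. CORI3 was at 216, 182 and 655 CPM in cml46 cml47 Pma against 497, 1063 and 1591 CPM in cbp60a Pma (-1.74 ± 0.58, adjusted p = 0.17), and VSP2 at 108, 51.3 and 354 CPM (-1.36 ± 1.02, adjusted p = 0.61).

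In mock leaves the members were low in every genotype, at 0.194% to 0.517% of all counts per library. Many were near 0 there: 46 of 166 had at most 3 counts over the group in both triple mutant mock and cbp60a mock, 13 of them none in either, having passed the filter through other libraries, so the absence of a call says little of them. For the other genotypes set against cbp60a mock, 36 to 45 members had at most 3 counts in both groups. Against cbp60a mock, no member was called higher or lower in the triple mutant, and 0% of all genes were called in either direction. The same was found for chp60g sard1, with 0% higher and 0% lower. At an unadjusted p under 0.05 3 members were higher and 9 lower in the triple mutant, and 1 and 10 in chp60g sard1, and DESeq2 called none. In wrky70 no member was higher (0.033% of all genes) or lower (0.0726%), with 2 and 11 at an unadjusted p under 0.05 and none by DESeq2. In sid2 1 member was higher (0.0198% of all genes) and none lower (0.369%), and in cml46 cml47 1 was higher (0.231%) and none lower (0.0792%). At an unadjusted p under 0.05 2 were higher and 8 lower in sid2, 11 were higher and 8 lower in cml46 cml47, and DESeq2 called 1 higher and none lower in each. Without the cbp60a mock library of experiment 1, no member was called in the triple mutant, chp60g sard1, wrky70 or sid2, and 1 was higher in cml46 cml47.

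The higher member in both was AT1G14250, listed as a nucleoside phosphatase. It was at 2.89, 0 and 1.09 CPM in cbp60a mock, at 31, 15.5 and 17.5 CPM in sid2 mock and at 37.6, 0.627 and 78.8 CPM in cml46 cml47 mock, where the libraries overlap with those of cbp60a. The differences were 4.0 ± 0.94 (adjusted p = 0.044) and 4.19 ± 0.91 (adjusted p = 0.031). Wild type mock was at 12.9, 7.58 and 16.9 CPM, so cbp60a was the low genotype for this gene. Both calls were lost in the fit of the 30 libraries alone and with no experiment block.

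Levels of the groups that chose the members are given as a description. The members made up 1.05% to 2.81% of counts in wild type Pma, 5.62% to 12.3% in chp60g sard1 Pma and 6.80% to 7.67% in sid2 Pma. The mean L in Pma was highest in chp60g sard1 for 90 members, in sid2 for 58, in the triple mutant for 15 and in wrky70 for 3. Triple mutant Pma exceeded wild type Pma by a median of 1.81, and by at least 1 for 148 of 166. Over the 5318 loci that rose in wild type the median was -0.42. The wild type Pma libraries helped to choose the members, so the members' excess over them is in part set by the rule and carries no test.

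Some markers of leaf cell types also differed between cbp60a and the triple mutant in Pma leaves, and not all in the same direction. The leaf label can be read from 3 mesophyll markers, which summed to 18338 to 29912 CPM over all mock libraries. In Pma leaves their sum was 1151 to 1754 CPM in cbp60a and 3980 to 11127 CPM in the triple mutant, and all 3 were higher there. The 4 guard cell markers summed to 131 to 160 CPM in cbp60a and 65.8 to 102 CPM in the triple mutant, with 1 of 3 tested higher and 1 lower. The 2 myrosin cell markers, from cells that hold glucosinolate-splitting enzymes, summed to 548 to 703 against 708 to 1676 CPM, and both were higher. The phloem markers summed to 203 to 310 against 278 to 323 CPM (1 of 4 higher), xylem markers to 43.7 to 46.6 against 49.1 to 84.1 CPM (none of 3 called), and epidermis markers to 24.5 to 44.7 against 23.1 to 229 CPM (2 of 4 higher, with PDF1 at 0 in cbp60a). Their part in the result was not tested. None of 4 reference genes differed past the threshold.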

How the data were processed

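Libraries were 3' tag sequencing of leaf RNA, with a molecular tag in each read, per the labels' protocols. Reads were demultiplexed with bcl2fastq 2.17.1.14 and aligned with STAR 2.4.2a to TAIR10, per the submitters' processing notes. The authors deposited raw counts per locus for 42 libraries; the counting tool, strand setting and any removal of duplicate tags are not given in the sources used here, so counts are tags and not known to be molecules. Tags sit at the 3' end, and levels were used across genes only to choose which members to name or print. Where nothing says otherwise, the 3 experiments are taken as the replicates, and intervals on counts cover counting error only.

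CPM was the count divided by the column sum, and the rule used log2(CPM + 1). Members and gene lists were chosen with earlier results of these data known. Role groups for glucosinolates, volatiles, cell wall, calcium and transcription were put together after the values were seen. The tests used R 4.3.3 and edgeR 4.0.16: TMM scaling, filterByExpr and a quasi-likelihood fit of all 42 libraries with 14 groups and the experiment as a block, over 15161 genes, adjusted by Benjamini-Hochberg. Only groups that the rule did not use enter the tested contrasts. Same-numbered libraries come from 1 experiment and deviated together (mean correlations 0.372, 0.348 and 0.129 over 91 pairs each, against -0.166 between experiments). Replicates differed beyond counting noise (chi-square per degree of freedom 3.38 to 38.5), so none was counted as a duplicate. Named genes are the members on the lists, the 10 with a symbol at the highest level in triple mutant Pma, the 10 strongest rises called against cbp60a in all 3 experiments, those at the edges of the rule, and up to 5 in each direction in the other comparisons. Other settings were DESeq2 1.42.0, RLE factors, no filter, no block, the 30 libraries alone each replicate left out and, chosen after seeing the data, the cbp60a mock library of experiment 1 left out. The procedure was tested on simulated data. Sequences are from the RefSeq TAIR10.1 genome, and 3' ends were compared with BLAST 2.17.0. No protein sequence was used here.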

Additional observations from a re-analysis of the deposited data

Results flagged for a closer look

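The response to Pma differed between genotypes for 60 members (36.1%, against 3.33% of all genes). These had a larger response in the triple mutant than in cbp60a by the interaction test of edgeR at adjusted p under 0.05. Of these, the largest fitted values were those of AT1G54010 (9.89 on the log2 scale), ATCSLA15 (9.72), AT3G59930 (8.31), VSP1 (7.04) and AT4G17470 (6.80). The values of AT1G54010, ATCSLA15 and AT3G59930 have no count in triple mutant mock behind them and are no bound. VSP1, AT4G17470 and the other genes just named had a larger response in the triple mutant in all 3 experiments, on the log2(CPM + 1) scale. The cbp60a mock library of experiment 1, where PR1 was at 692 CPM against 10.5 and 12.0 in the others of its group, enters this test, and without it 27 members were called, with 354 of 15470 genes. Without experiment 2 the calls were 2 members and 6 of all genes, and without experiment 3 they were 4 members and 14 genes. With no experiment block 19 members and 132 genes were called. The cause was not tested.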

How the results depend on the processing

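None of the 147 members called higher in the triple mutant than in cbp60a in Pma leaves reversed direction in that comparison under the other settings. Other members and comparisons were not checked for a reversal. With a pseudocount of 5 the rule gave 100 members in place of 166, since low genes drop below the threshold by construction; the other settings of the rule gave 154 to 207.

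The experiment is the pairing block. With no replicate block, 116 members were higher in the triple mutant than in cbp60a (147 with it), 19 had a larger response (60 with it), and the sid2 and cml46 cml47 mock calls both went to 0. In the fit of the 30 libraries alone those mock calls were 0 as well, and 128 members were higher in the triple mutant; with RLE factors the sid2 mock call was 0. The member lower in cml46 cml47 Pma than in mock was not called without the filter (0), where 1 member was lower in cml46 cml47 than in cbp60a. For wrky70 against cbp60a, 1 member was lower with no filter, 1 with the 30 libraries and 1 with DESeq2. The cause was not tested.

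Leaving out a replicate, or 1 Pma library of the triple mutant or of cbp60a, gave 89 to 149 members higher in the triple mutant than in cbp60a. Over all genes the calls moved as well, from 360 to 1875 higher in those fits. Leaving out a replicate gave 131 to 155 higher in the triple mutant than in cml46 cml47, and 2 to 53 with a larger response. Without the cbp60a mock library of experiment 1, a setting chosen after seeing the data, the larger responses were 27 and the sid2 mock call was 0. Leaving out a replicate gave 0 to 9 higher and 0 to 2 lower in wrky70 Pma, and 0 to 2 lower in cml46 cml47 Pma. For Pma against mock it gave 61 to 109 higher and 0 to 1 lower in cbp60a, 47 to 85 higher and 0 to 2 lower in cml46 cml47, 83 to 122 higher in wrky70 and 156 to 166 in the triple mutant. In mock it gave 0 to 0 higher in sid2, and 0 to 1 higher and 0 to 2 lower in cml46 cml47. PYK10, ATCSLA15 and CYP71B37 did not pass without replicate 3.

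Levels near 1 count limit the mock values, where 15 members in cbp60a and 32 in the triple mutant had to be given a bound because they had no count in mock.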

Other observations

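Genes of dehydration and cold responses form a list with no member in it. In Pma leaves 7 of 12 tested were higher in the triple mutant than in cbp60a and none was lower (edgeR, adjusted p under 0.05 over all genes). Over all tested genes 9.95% were higher and 4% lower. The median log2 fold change of the list was 2.53. The 7 were COR15A (3.71), RD29A (3.32), P5CS1 (3.00), COR15B (2.91), RD22 (2.83), ERD10 (2.65) and KIN2 (2.41). COR15A and COR15B encode chloroplast proteins that protect membranes in the cold, and P5CS1 makes proline. Against cml46 cml47 also 7 of 12 were higher and none lower, where 10% of all genes were higher and 6.34% lower. The same triple mutant libraries enter both comparisons.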
